A study of Mus musculus with 3 samples.

Results

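The 9 transcription factor genes described here belong to the myeloid lineage and were compared across 3 populations of cells sorted from mouse marrow: Spi1, which encodes PU.1, the C/EBP genes Cebpa, Cebpb, Cebpd and Cebpe, the interferon regulatory factor genes Irf4 and Irf8, and the zinc-finger repressor genes Gfi1 and Gfi1b. They were chosen by gene name and are 9 of the 23393 genes kept from the deposited table. Of these, 8 stood there under their current symbol, and Spi1 under its older name Sfpi1. The cells were sorted from the LSK compartment of C57BL/6 marrow, the lineage-negative, Sca-1-positive, c-Kit-positive cells that hold stem cells and early progenitors. Hematopoietic stem cells (HSCs) were CD48- CD150+ and were split by a GFP reporter for the gene Map17 (Pdzk1ip1) into Map17-GFP+ cells, called GFP+ HSCs here, and Map17-GFP- cells, called GFP- HSCs. Multipotent progenitors (MPPs) were CD48+ CD150- and Map17-GFP-. The labels give no age, no number of animals or cells and no construction of the reporter, and they do not say whether the 3 populations came from the same mice. There was 1 library per population, so no difference can be set against a spread between replicates, no test was made, and every comparison below is between 3 libraries.

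PU.1 and the C/EBP proteins switch on the genes of granulocytes and macrophages, and their dose helps to decide which myeloid fate a progenitor takes. Irf8 steers progenitors to monocytes and dendritic cells, often bound to DNA together with PU.1. Gfi1 and Gfi1b are paralogous repressors that recruit the demethylase LSD1 and the CoREST proteins. Gfi1 is needed for neutrophils and Gfi1b for red cells and platelets, both restrain the cycling of stem cells, and they are known to repress each other's genes.

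The promoters of 4 of the genes are shown because these genes moved farthest or in opposite directions between stem cells and progenitors. Each line gives the 250 bases upstream of the RefSeq start site, 5′ to 3′ on the strand of the gene (GRCm38.p6, the mm10 assembly). They lie at chr2:28621983-28622232 (minus strand) for Gfi1b, chr5:107725806-107726055 (minus strand) for Gfi1, chr8:120736108-120736357 (plus strand) for Irf8 and chr7:35119043-35119292 (plus strand) for Cebpa. Capitals mark a match to 1 of 5 motifs searched on both strands of the whole 300-base window, which runs on 50 bases past the start site.
Gfi1b: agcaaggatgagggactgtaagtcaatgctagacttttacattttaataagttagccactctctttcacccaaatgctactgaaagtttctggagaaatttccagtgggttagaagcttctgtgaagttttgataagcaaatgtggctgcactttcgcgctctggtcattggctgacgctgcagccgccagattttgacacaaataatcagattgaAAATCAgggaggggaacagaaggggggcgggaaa
Gfi1: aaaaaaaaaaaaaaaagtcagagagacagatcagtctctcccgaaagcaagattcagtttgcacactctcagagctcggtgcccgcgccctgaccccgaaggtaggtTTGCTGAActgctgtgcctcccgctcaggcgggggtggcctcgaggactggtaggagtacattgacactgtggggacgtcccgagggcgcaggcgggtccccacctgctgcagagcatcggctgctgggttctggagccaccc
Irf8: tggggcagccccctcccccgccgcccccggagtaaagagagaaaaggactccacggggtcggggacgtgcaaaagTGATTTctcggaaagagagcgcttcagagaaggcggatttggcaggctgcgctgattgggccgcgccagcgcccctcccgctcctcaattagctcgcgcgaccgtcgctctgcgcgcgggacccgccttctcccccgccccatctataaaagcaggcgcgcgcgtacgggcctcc
Cebpa: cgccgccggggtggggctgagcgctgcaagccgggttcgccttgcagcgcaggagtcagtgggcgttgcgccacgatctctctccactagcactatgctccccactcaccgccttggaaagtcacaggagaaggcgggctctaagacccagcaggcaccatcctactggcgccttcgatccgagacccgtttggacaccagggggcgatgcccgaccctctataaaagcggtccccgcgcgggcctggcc
The capitals in Gfi1b are the Gfi motif AAATCA, 34 to 29 bases upstream of the start. The capitals in Irf8 are the same motif on the opposite strand, 175 to 170 bases upstream, and those in Gfi1 are the C/EBP motif TTGCNNAA, 143 to 136 bases upstream. The Cebpa window held no match to any of the 5. RefSeq windows were found for 6 of the 9 genes, 8 windows in all, since Gfi1 and Irf8 have a pair each. The other Irf8 window had a match to AAATCA 226 to 221 bases upstream of its start, and the windows of Cebpb and Irf4 and the other window of Gfi1 held none of the motifs. Of 32851 RefSeq windows of this length, 14.0% held AAATCA and 10.8% held TTGCNNAA, so these matches are common. The PU.1 motif GAGGAAGT (3.20% of all windows), the IRF motif, GAAA and again GAAA after any 2 bases (3.44%), and the GATA motif AGATAA (11.2%) matched in 0 of the 8 windows. No window was used for Spi1, Cebpd and Cebpe. Gene positions given below are those of RefSeq on the same assembly.

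The level of a gene is its normalized count as the authors deposited it. Summed levels were 25311805 in GFP+ HSCs, 25375047 in GFP- HSCs and 26689660 in MPPs, after the authors' scaling, and the sequencing depth itself is unknown. The genes of the CD150 and CD48 gates followed the sort: Slamf1 (CD150) stood at 2219 in GFP+ HSCs, 2144 in GFP- HSCs and 17 in MPPs, and Cd48 at 64, 168 and 7744. Pdzk1ip1, the reporter gene, stood at 5659, 3673 and 290 and followed the GFP gate only in part. It was 1.54-fold higher in GFP+ than in GFP- HSCs. GFP- HSCs stood 12.7-fold above MPPs, although both were sorted as Map17-GFP-. In bulk samples such as these, fewer cells expressing a gene and less RNA per cell cannot be told apart. Haemoglobin genes Hba-a1 and Hbb-b1 were listed at 0 in all 3 libraries, and marker sums of other lineages are given below beside the factors they moved with. The 8 B cell markers summed to 918 in GFP+ HSCs, 781 in GFP- HSCs and 1489 in MPPs, with 3, 3 and 0 at 0, and Cd79b made up most of each sum.

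Apart from Irf4, the factors fell into 3 patterns. Irf8, Cebpa and Cebpe were far lower in both HSC fractions than in MPPs, by 5.88-fold to 30.4-fold. Spi1, Cebpd and Gfi1 were present in HSCs at lower levels than in MPPs, and Gfi1b and Cebpb were higher in HSCs than in MPPs. Irf4 was near the bottom of the scale in every library. Its level was 4.37-fold lower in GFP+ HSCs and 2.59-fold lower in GFP- HSCs than in MPPs. Of the 9, 8 averaged 50 or more over the libraries and were compared with all 11951 genes that did. Irf4 missed this minimum. Cebpe, at 26 in GFP+ HSCs, 15 in GFP- HSCs and 153 in MPPs, passed it only through MPPs. It could therefore not have counted as higher in HSCs. A log2 ratio below is that of level + 5 in both libraries. Set against MPPs, GFP+ HSCs had 5 of the 8 lower by 2-fold or more and 1 higher by as much, where 8.6% of all genes were that far lower and 13.7% that far higher. GFP- HSCs also had 5 lower and 1 higher, where 5.53% of all genes were that far lower and 11.6% that far higher. Cebpe is among the 5 lower genes in both fractions. The comparisons share the MPP library, so they do not repeat each other. Between GFP+ and GFP- HSCs, 0 of the 8 were 2-fold higher and 0 were 2-fold lower, where 0.41% and 0.87% of all genes were. The median log2 ratio of the 8 was -1.23 for the GFP+ fraction over MPPs, -1.47 for the GFP- fraction over MPPs and 0.14 for GFP+ over GFP- HSCs, beside medians over all genes of 0.0127, -0.0101 and 0.0105.

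**Figure D1:**
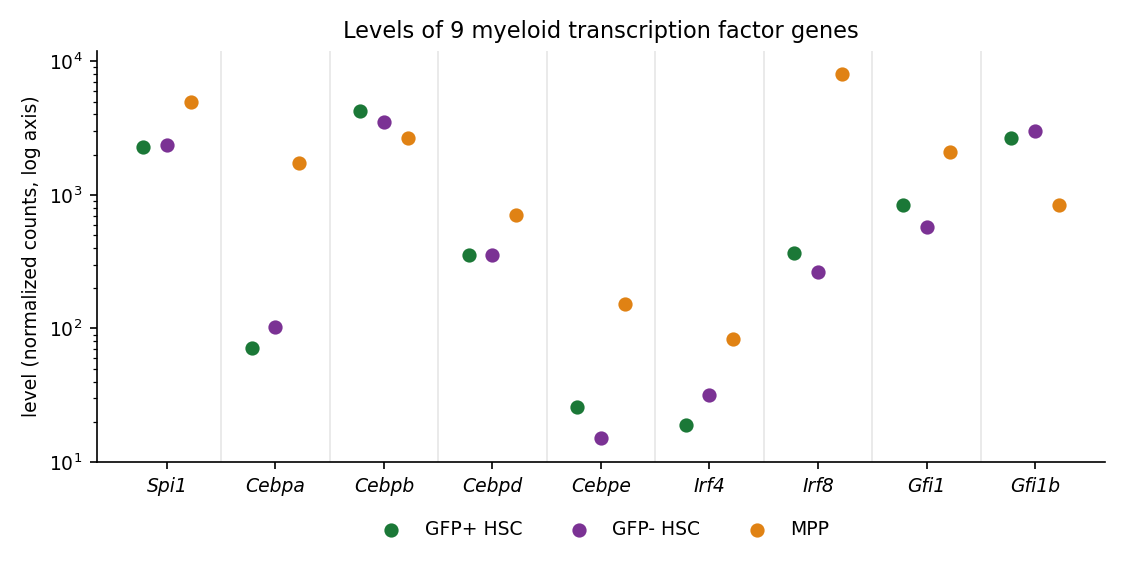
Levels of the 9 genes in normalized counts on a log axis, with 1 point per library, in GFP+ HSCs, GFP- HSCs and MPPs from left to right within each gene. Irf8 and Cebpa have the widest gap between the HSC libraries and MPPs, and Gfi1b and Cebpb are the genes whose MPP point is lowest.

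Spi1 encodes PU.1, an ETS family factor that stem cells need for self-renewal and myeloid cells for nearly every step of differentiation (chromosome 2, 91082374 to 91115759). Its level was 2268 in GFP+ HSCs, 2348 in GFP- HSCs and 4960 in MPPs. The HSC fractions were level with each other, with a log2 ratio of -0.05, and both stood below MPPs, by 2.19-fold in GFP+ HSCs and 2.11-fold in GFP- HSCs. Per kilobase of its longest annotated transcript, Spi1 was at percentile 89.0 of expressed genes in GFP+ HSCs, 89.5 in GFP- HSCs and 95.6 in MPPs. Spi1 therefore ranked among the abundant transcripts of all 3 populations. Its closest relatives had far lower levels and differed from each other. Spib, a PU.1 relative of lymphoid and plasmacytoid dendritic cells, stood at 9 in GFP+ HSCs, was listed at 0 in GFP- HSCs and stood at 208 in MPPs. Spic, a PU.1 relative of red pulp macrophages, stood at 45, 82 and 64 in the same order. Among 13 other ETS factor genes, Spib was the 1 that stood 2-fold or more below MPPs in GFP- HSCs, and 0 stood as far above. Of all genes, 5.53% and 11.6% did. In GFP+ HSCs Spib was again the 1 that far below, and Ets2 the 1 that far above, at 2451 in GFP+ HSCs and 1219 in MPPs. Of all genes, 8.6% and 13.7% stood that far below and above there. Spib passed the minimum mean only through its MPP level, so it could not have counted as higher in HSCs. Ets2 was named after its values were seen. Etv6, a repressor that adult stem cells require, was at 19254 in GFP+ HSCs, 18945 in GFP- HSCs and 16303 in MPPs.

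The PU.1 dose is often read against its antagonist Gata1, the factor of erythroid and megakaryocytic cells. Gata1 stood at 279 in GFP+ HSCs, 758 in GFP- HSCs and 138 in MPPs. The ratio of Spi1 to Gata1 per kilobase was 7.60 in GFP+ HSCs, 2.90 in GFP- HSCs and 33.6 in MPPs. It was thus 2.62-fold higher in GFP+ than in GFP- HSCs and 11.6-fold lower in GFP- HSCs than in MPPs. In the step between the HSC fractions this ratio moved through Gata1, since Spi1 was level there. The summed level of 8 erythroid marker genes, Gata1 among them, was 1613 in GFP+ HSCs, 4059 in GFP- HSCs and 2526 in MPPs, with 2 markers at 0 in each library. That of 6 megakaryocyte markers was 17336, 21476 and 9237, with 0 at 0. Vwf, at 9964, 7697 and 157, made up 57.5% of the megakaryocyte sum in GFP+ HSCs. Plek, at 2128, 4525 and 7494, made up 81.1% of it in MPPs. Between the HSC fractions Vwf was the 1 megakaryocyte marker higher in GFP+ HSCs, and 5 were lower. The part of cells of those lineages in the ratio was not tested.

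Cebpa encodes C/EBPα, without which granulocyte and monocyte progenitors do not form, and which restrains stem cell cycling (chromosome 7, 35119293 to 35121928, plus strand). Its level was 71 in GFP+ HSCs, 102 in GFP- HSCs and 1723 in MPPs. GFP+ HSCs were 24.3-fold and GFP- HSCs 16.9-fold below MPPs, with log2 ratios of -4.51 and -4.01 that lay at percentiles 0.569 and 0.602 of all genes compared. Cebpa was also 1.44-fold lower in GFP+ than in GFP- HSCs, at percentile 4.36 of the ratios of all genes. The level in HSCs was 4.12% of that of MPPs in the GFP+ fraction and 5.92% in the GFP- fraction. For Flt3, a progenitor receptor gene, these shares were 4.26% and 6.44%, and for Cd48, the marker that was sorted against, 0.826% and 2.17%. Sums of 7 mast cell, basophil and eosinophil markers followed the same order as Cebpa, at 54 in GFP+ HSCs, 302 in GFP- HSCs and 1701 in MPPs, with 1, 3 and 0 of them at 0. Sums of 6 T and NK cell markers did so as well, at 904, 1610 and 8285, with 2, 2 and 0 at 0. Nkg7 alone, at 267, 928 and 6433, made up 57.6% of the sum in GFP- HSCs and 77.6% in MPPs. Klrb1c, on the same list, ran the other way against MPPs, at 266 in GFP+ HSCs, 281 in GFP- HSCs and 39 in MPPs. The part of such cells, or of MPP-like cells inside the HSC gate, in the Cebpa level was not tested. The ratio of Spi1 to Cebpa per kilobase was 41.2 in GFP+ HSCs, 29.7 in GFP- HSCs and 3.72 in MPPs. Gata2, the stem cell and mast cell factor, ran opposite to Cebpa at 28245 in GFP+ HSCs, 25984 in GFP- HSCs and 4005 in MPPs, so that the ratio of Cebpa to Gata2 was 171-fold lower in GFP+ HSCs and 110-fold lower in GFP- HSCs than in MPPs.

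Cebpb encodes C/EBPβ, which drives emergency granulopoiesis during infection (chromosome 2, 167688915 to 167690432). It went against Cebpa, at 4247 in GFP+ HSCs, 3501 in GFP- HSCs and 2667 in MPPs. The order was the same at every step, with GFP+ HSCs 1.21-fold above GFP- HSCs and 1.59-fold above MPPs, and GFP- HSCs 1.31-fold above MPPs. None of these steps reached 2-fold, and in the distribution of all genes they lay at percentiles 87.8, 80.0 and 74.4. Cebpb is inducible by stress and cytokines, as are Jun, at 180537 in GFP+ HSCs, 190529 in GFP- HSCs and 133499 in MPPs, and Egr1, at 142259, 145864 and 65702. Those genes were also higher in HSCs than in MPPs, and their link to the Cebpb level was not tested. Of the exon bases of Cebpb, 312, or 20.7%, overlap exons of Tmem189 on the opposite strand, and the library chemistry does not mark strand. Tmem189 itself was nearly flat, at 1113 in GFP+ HSCs, 1080 in GFP- HSCs and 1068 in MPPs.

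Cebpd encodes C/EBPδ, another factor induced in inflammation (chromosome 16, 15887286 to 15889545). It stood at 356 in GFP+ HSCs, 354 in GFP- HSCs and 710 in MPPs. The HSC fractions differed by 1.01-fold, and the log2 ratios against MPPs of -0.99 for both fractions lay just inside the 2-fold limit. Of its exon bases 562 (15.0%) overlap Spidr on the opposite strand, which stood at 1452 in GFP+ HSCs, 1740 in GFP- HSCs and 1840 in MPPs. Antisense overlaps of Cebpa (1.93% of its exon bases) and Gfi1 (3.17%) were smaller. The pattern of Cebpd was nearest to that of Spi1 among all pairs of the 9 genes, at a distance of 0.10 between their centred log2 levels over the 3 libraries.

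Cebpe encodes C/EBPε, which acts late in neutrophil maturation and is needed for secondary granules (chromosome 14, 54710363 to 54712174). Its levels were near the bottom of the scale, at 26 in GFP+ HSCs, 15 in GFP- HSCs and 153 in MPPs. GFP+ HSCs were 5.88-fold and GFP- HSCs 10.2-fold below MPPs. GFP+ HSCs stood 1.73-fold above GFP- HSCs, at percentile 98.0 of all genes but by few normalized counts. Low genes spread more widely: 5.22% of those averaging 50 to 200 were 2-fold or more apart between the HSC fractions, against 1.28% of all genes. Neutrophil markers moved the same way between the HSC fractions. The 11 markers summed to 1841 in GFP+ HSCs, 861 in GFP- HSCs and 914 in MPPs, with 0 of 11 at 0 in any library, and their part in the Cebpe level was not tested.

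The shares of the 4 listed C/EBP genes followed from these values. Per kilobase, the 4 genes summed to 2960 in GFP+ HSCs, 2480 in GFP- HSCs and 2740 in MPPs. Cebpb made up 95.2% of that sum in GFP+ HSCs, 94.1% in GFP- HSCs and 64.6% in MPPs, and Cebpa 0.911%, 1.57% and 24.0%. The sum of the 4 was thus similar across the libraries while the single genes were not. It leaves out Cebpg, which stood at 1608 in GFP+ HSCs, 1749 in GFP- HSCs and 2066 in MPPs. The shares are therefore not those of the whole family. Outside the list, of the C/EBP relatives Cebpg and Ddit3 and of Cebpz, taken in by its name alone, 0 were 2-fold apart in any comparison. Of all genes, 1.28% were that far apart between the HSC fractions. Against MPPs, 22.3% were in GFP+ HSCs and 17.1% in GFP- HSCs. Ddit3, the stress-induced CHOP, had the widest range of these genes, at 1335 in GFP+ HSCs, 1683 in GFP- HSCs and 1069 in MPPs. The Tribbles genes, of which Trib1 and Trib2 target C/EBPα for degradation, were not uniform. Trib2 stood at 894 in GFP+ HSCs, 729 in GFP- HSCs and 124 in MPPs, and Trib3 at 1052, 669 and 146. Both were thus over 2-fold higher in HSCs, where Cebpa was lowest, whereas Trib1 stood at 1538 in GFP+ HSCs, 1190 in GFP- HSCs and 1887 in MPPs.

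**Figure D2:**
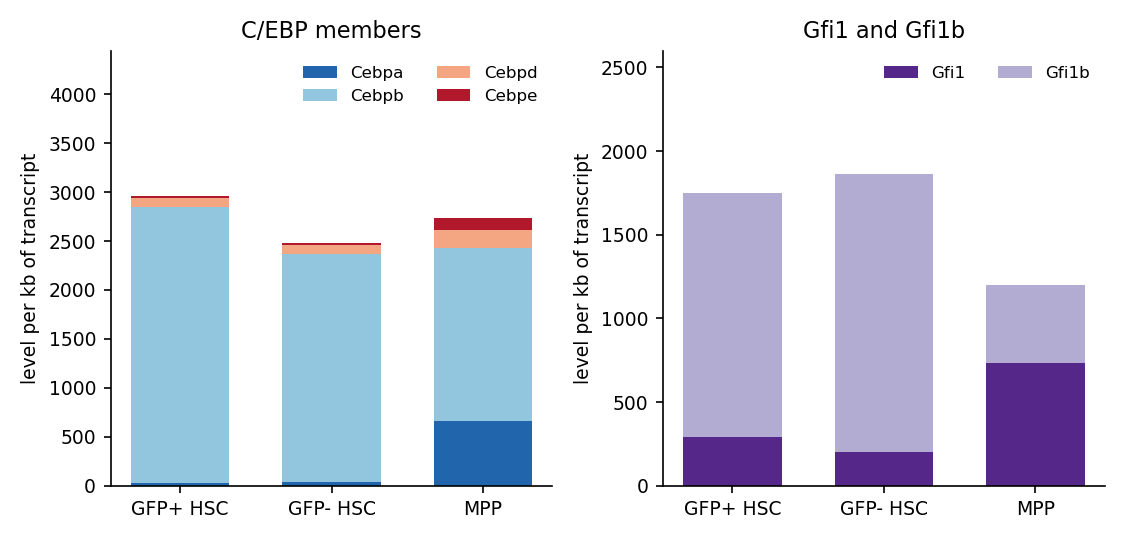
Stacked levels per kilobase of the longest annotated transcript for the 4 C/EBP genes (left) and for Gfi1 and Gfi1b (right), with 1 bar per library. Cebpb fills most of the C/EBP bar in HSCs and Cebpa is visible in MPPs, at 24.0%, while Gfi1b makes up 83.3% of the Gfi bar in GFP+ HSCs, 89.2% in GFP- HSCs and 38.7% in MPPs (89.2%, 93.2% and 51.0% with median transcript lengths).

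Irf8 encodes the factor of monocyte and dendritic cell progenitors (chromosome 8, 120736358 to 120756694). Its level was 368 in GFP+ HSCs, 265 in GFP- HSCs and 8046 in MPPs. GFP+ HSCs were 21.9-fold and GFP- HSCs 30.4-fold below MPPs, with log2 ratios at percentiles 0.602 and 0.284 of all genes. Irf8 went the other way from Cebpa within the HSC gate: GFP+ HSCs stood 1.39-fold above GFP- HSCs, at percentile 95.3. As a share of the MPP level Irf8 was thus 4.57% in GFP+ HSCs and 3.29% in GFP- HSCs, whereas Cebpa, Flt3 and Cd48 had the larger share in GFP- HSCs. The summed level of 8 dendritic cell markers was 7007 in GFP+ HSCs, 4749 in GFP- HSCs and 9300 in MPPs, and Cd74, at 6522, 4371 and 7572, made up 81.4% of it in MPPs and more in both HSC libraries. Of the 8, 1 was at 0 in GFP+ HSCs, 2 in GFP- HSCs and 0 in MPPs. Itgax and Siglech stood at 0 and 18 in GFP+ HSCs, 0 and 7 in GFP- HSCs, and 195 and 622 in MPPs, whereas Clec9a, on the same list, ran the other way at 130, 107 and 38. The 9 monocyte and macrophage markers summed to 6601 in GFP+ HSCs, 6360 in GFP- HSCs and 13332 in MPPs, with 0 markers at 0 and Lyz2 making up most of the sum in the HSC libraries. Their part in the Irf8 levels was not tested.

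Irf4, the closest relative of Irf8, acts in B cells, plasma cells and dendritic cells (chromosome 13, 30749233 to 30766981). It stood at 19 in GFP+ HSCs, 32 in GFP- HSCs and 83 in MPPs, the lowest level per kilobase of the 9 in each library. The ratio of Irf8 to Irf4 per kilobase was 26.6 in GFP+ HSCs, 11.4 in GFP- HSCs and 133 in MPPs. Levels this low make the ratio in HSCs imprecise. Of the other IRF genes, Irf7, an interferon response factor gene, stood at 1298 in GFP+ HSCs, 986 in GFP- HSCs and 1309 in MPPs, and Irf1, another interferon response factor gene, at 6095, 5232 and 5597.

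Gfi1 (chromosome 5, 107716655 to 107725805) stood at 835 in GFP+ HSCs, 576 in GFP- HSCs and 2103 in MPPs. It was 2.52-fold lower in GFP+ HSCs and 3.65-fold lower in GFP- HSCs than in MPPs. GFP+ HSCs were 1.45-fold above GFP- HSCs, at percentile 96.7 of all genes. Gfi1b (chromosome 2, 28609450 to 28621982) ran the other way at every step. It stood at 2666 in GFP+ HSCs, 3033 in GFP- HSCs and 846 in MPPs. GFP+ HSCs were 3.15-fold and GFP- HSCs 3.59-fold above MPPs, at percentiles 92.5 and 94.4, and GFP+ HSCs were 1.14-fold below GFP- HSCs, at percentile 18.2. The Gfi1b promoter printed above holds AAATCA close to its start, and the Gfi1 windows hold none.

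The balance of the paralogs differed between the gates. The ratio of Gfi1 to Gfi1b per kilobase was 0.200 in GFP+ HSCs, 0.121 in GFP- HSCs and 1.58 in MPPs. Relative to MPPs it was 7.94-fold lower in GFP+ HSCs and 13.1-fold lower in GFP- HSCs, and it was 1.65-fold higher in GFP+ than in GFP- HSCs. These folds do not depend on transcript length, but the ratios themselves do: with the median length of the annotated transcripts the ratio in MPPs was 0.958, so which paralog is higher in MPPs is not settled here. The sum of the pair per kilobase was 1750 in GFP+ HSCs, 1860 in GFP- HSCs and 1200 in MPPs. Of the 6 megakaryocyte markers, 5 were also higher in each HSC fraction than in MPPs and 1, Plek, was lower. The part of these markers in the Gfi1b level was not tested. The ratio of Irf8 to Gfi1, which are known as opponents in the choice between monocytes and granulocytes, was 0.363 in GFP+ HSCs, 0.379 in GFP- HSCs and 3.15 in MPPs. In the HSC fractions this ratio was nearly the same, since Irf8 and Gfi1 were both higher in GFP+ HSCs by a similar fold.

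Of 12 co-repressor genes of Gfi1 and Gfi1b, 0 were 2-fold apart in any comparison. Of all genes, 1.28% were that far apart between the HSC fractions. Against MPPs, 22.3% were in GFP+ HSCs and 17.1% in GFP- HSCs. The median log2 ratio of the 12 was 0.03 for GFP+ against GFP- HSCs and 0.07 for GFP- HSCs against MPPs. Gse1 differed most from MPPs, 1.84-fold above them in GFP+ HSCs and 1.77-fold in GFP- HSCs, at 6216 in GFP+ HSCs, 5960 in GFP- HSCs and 3373 in MPPs. Kdm1a, which encodes LSD1, stood at 4299 in GFP+ HSCs, 3878 in GFP- HSCs and 4799 in MPPs. Among 12 genes known to be repressed by Gfi1 or Gfi1b, 6 stood 2-fold or more above MPPs in GFP- HSCs and 0 as far below, with a median log2 ratio of 0.92, where 11.6% and 5.53% of all genes did. Tgfbr3, a TGF-beta co-receptor gene that Gfi1b represses, stood at 6448 in GFP+ HSCs, 4991 in GFP- HSCs and 316 in MPPs, so it was high where Gfi1b was high. Csf1, the macrophage growth factor gene that Gfi1 represses, stood at 869 in GFP+ HSCs, 587 in GFP- HSCs and 280 in MPPs. Meis1, a stem cell homeobox gene, was at 22023 in GFP+ HSCs, 20666 in GFP- HSCs and 8278 in MPPs. Id2, a further Gfi1 target, was the farthest below MPPs in GFP- HSCs, at 471 in GFP+ HSCs, 432 in GFP- HSCs and 748 in MPPs. Within the HSC gate, 6 of the 12 were higher and 6 lower in GFP+ HSCs, close to the 51.7% of all genes that were higher.

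**Figure D3:**
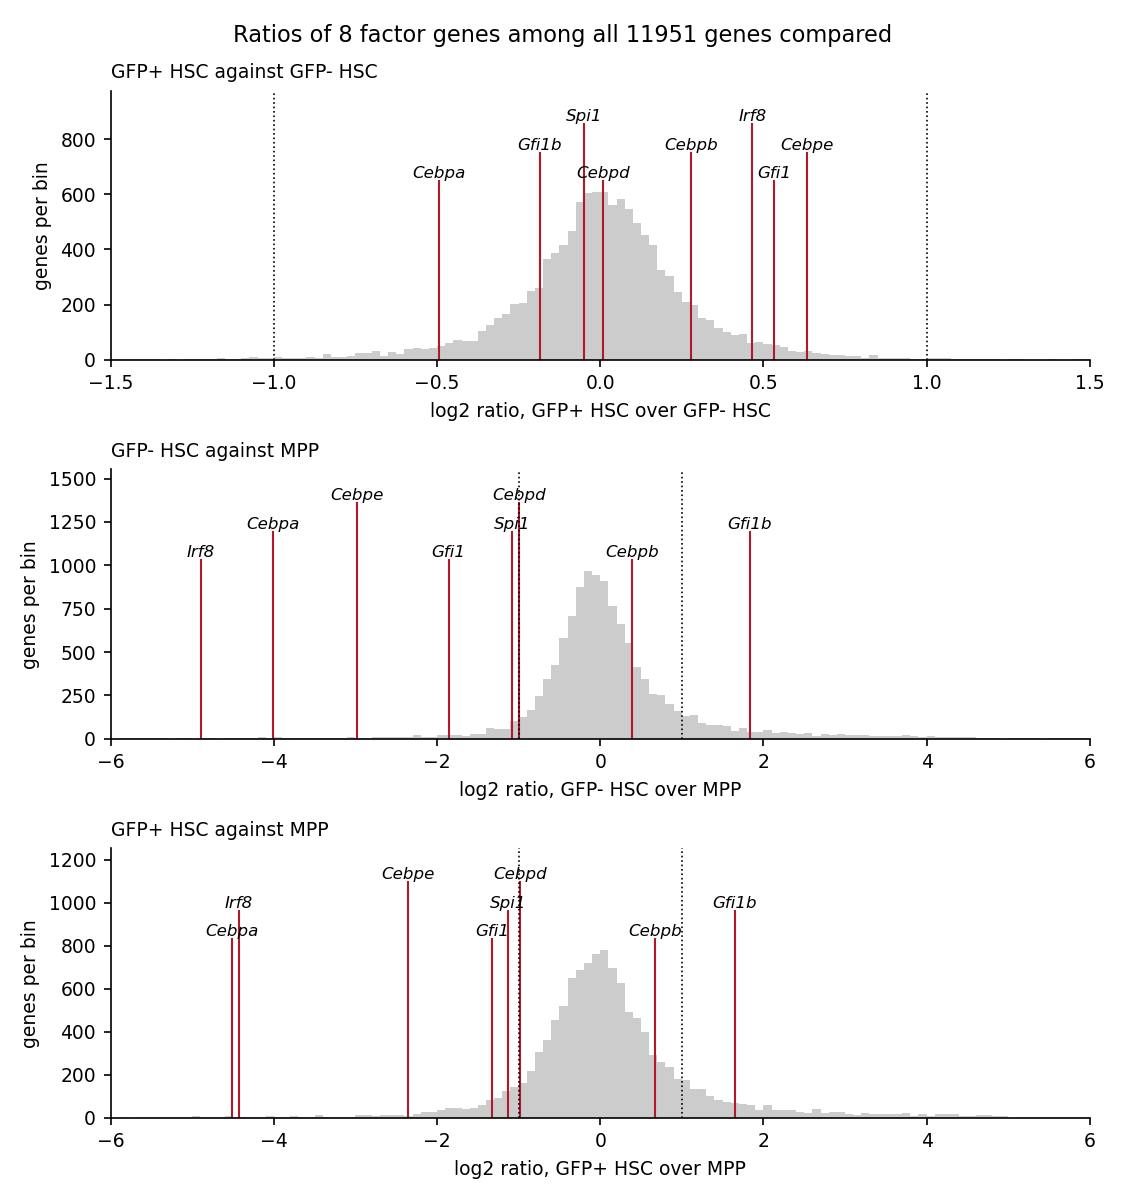
Histograms of the log2 ratio of all 11951 genes compared (grey) with the 8 factors that passed the minimum mean level as red lines, for GFP+ against GFP- HSCs (top), GFP- HSCs against MPPs (middle) and GFP+ HSCs against MPPs (bottom); dotted lines mark 2-fold. The x axis is narrower in the top panel, where all 8 lie between -0.49 and 0.63, while Irf8 and Cebpa lie at -4 or below in the others.

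The order of the 9 genes by level per kilobase differed between the gates. In both HSC fractions Cebpb was highest, followed by Gfi1b and Spi1, at 2820, 1460 and 1120 in GFP+ HSCs and at 2330, 1660 and 1150 in GFP- HSCs. In MPPs Spi1 and Irf8 were highest, at 2440 and 2320, followed by Cebpb at 1770. Spi1 and Irf8 in MPPs were too close to be ordered without replicates. With median transcript lengths Spi1 was highest in all 3 libraries. Among all expressed genes, Cebpa was at percentile 25.9 in GFP+ HSCs, 29.3 in GFP- HSCs and 76.2 in MPPs, and Irf8 at 39.3, 35.8 and 95.3.

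Genes known to be activated by PU.1 in myeloid cells were mostly lower in HSCs than in MPPs. In GFP+ HSCs 13 of 22 stood 2-fold or more below MPPs and 1 as far above, with a median log2 ratio of -1.98, and in GFP- HSCs 14 and 1 did, with a median of -1.71. Of all genes 8.6% and 13.7% stood as far below and above MPPs in GFP+ HSCs, and 5.53% and 11.6% in GFP- HSCs. Some of the 22 passed the minimum mean only through MPPs, so they could not have counted as higher in HSCs. Csf1r, the macrophage growth factor receptor gene, stood at 64 in GFP+ HSCs, 57 in GFP- HSCs and 1666 in MPPs. Cd53, a leukocyte tetraspanin gene, stood at 406 in GFP+ HSCs, 794 in GFP- HSCs and 8503 in MPPs. In both fractions 3 of the 22 were above MPPs by any amount, Tlr4, Csf2ra and Tlr2, the last 2 of which were named after their values were seen. Farthest was Tlr4, the receptor for bacterial lipopolysaccharide, at 1249 in GFP+ HSCs, 974 in GFP- HSCs and 441 in MPPs. Laptm5, a lysosomal membrane protein gene of blood cells, differed less, at 24307 in GFP+ HSCs, 24551 in GFP- HSCs and 34971 in MPPs. Between the HSC fractions 0 of the 22 were 2-fold apart, where 1.28% of all genes were. In GFP+ HSCs 13 were higher and 9 lower, close to the 51.7% of all genes that were higher.

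All 5 primary granule genes, which depend on C/EBPα, PU.1 and Myb, stood 2-fold or more below MPPs in both HSC fractions, with medians of -5.34 in GFP+ and -4.84 in GFP- HSCs. Of all genes, 8.6% stood that far below in GFP+ HSCs and 5.53% in GFP- HSCs. Mpo, which encodes myeloperoxidase, stood at 2750 in GFP+ HSCs, 2758 in GFP- HSCs and 135409 in MPPs, and Elane, which encodes neutrophil elastase, at 425, 557 and 16125. Prtn3, another granule protease gene, was the least different, at 2799 in GFP+ HSCs, 3014 in GFP- HSCs and 9085 in MPPs. Late neutrophil genes, which depend on C/EBPε, had no such drop. Of 12, 8 passed the minimum level, and of these 2 stood 2-fold or more below MPPs in GFP- HSCs and 0 as far above, where 5.53% and 11.6% of all genes did. The 8 were all higher in GFP+ than in GFP- HSCs, 3 of them by 2-fold or more, with a median log2 ratio of 0.92. Of all genes, 51.7% were higher by any amount and 0.41% by 2-fold or more, and of genes averaging 50 to 200, 2.4% by 2-fold or more. Of the 4 below the minimum 3 were higher and Retnlg was lower, at 12 in GFP+ and 23 in GFP- HSCs. Ngp, a granule protein gene, stood at 499 in GFP+ HSCs, 165 in GFP- HSCs and 94 in MPPs, Ltf, which encodes lactoferrin, at 323, 165 and 86, and Chi3l3, a chitinase-like protein gene, at 183, 12 and 94. This neutrophil pattern was known when the list was drawn up, so it is no independent support for the Cebpe values.

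Mononuclear phagocyte and dendritic cell genes, which depend on Irf8, were mostly lower in HSCs than in MPPs. Of 14 compared, 9 in GFP+ HSCs and 9 in GFP- HSCs stood 2-fold or more below MPPs, with medians of -1.71 and -1.95. Of all genes, 8.6% and 5.53% stood that far below. H2-Aa, at 2183 in GFP+ HSCs, 1776 in GFP- HSCs and 2187 in MPPs, and Ciita, at 297, 226 and 238, differed little. Both were named after their values were seen. Siglech, a plasmacytoid dendritic cell gene, stood at 18 in GFP+ HSCs, 7 in GFP- HSCs and 622 in MPPs, and Ccr2, the monocyte chemokine receptor gene, at 24, 38 and 845. Siglech, Ccr2 and some others of the 14 passed the minimum mean only through MPPs, so they could not have counted as higher in HSCs. Within the HSC gate, 10 of the 14 were higher in GFP+ HSCs and 4 lower, with a median log2 ratio of 0.29, and 0 were 2-fold apart. Of all genes, 51.7% were higher in GFP+ HSCs and 1.28% were 2-fold apart. Klf4, a monocyte factor that stress also induces, went against the list at 4162 in GFP+ HSCs, 5101 in GFP- HSCs and 2477 in MPPs. Some genes stand on more than 1 of these lists, Cybb on 3, so the lists are not independent.

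Partner and antagonist factors showed the erythroid and stem cell side. Of 20 compared, 8 stood 2-fold or more above MPPs in GFP- HSCs and 0 as far below, with a median log2 ratio of 0.55, where 11.6% and 5.53% of all genes did. Gata2 and Gata1 were the farthest, and Nab2, which with Egr factors represses neutrophil genes, was the highest in GFP+ against GFP- HSCs, at 1579 in GFP+ HSCs, 1334 in GFP- HSCs and 619 in MPPs. Ikzf1, which encodes the lymphoid factor Ikaros, was the lowest against MPPs, at 4636 in GFP+ HSCs, 5089 in GFP- HSCs and 9037 in MPPs. In GFP+ HSCs 0 stood 2-fold or more above GFP- HSCs and 2 as far below, where 0.41% and 0.87% of all genes did. The 2 were Gata1 and the erythroid factor gene Klf1 (152 in GFP+ HSCs, 333 in GFP- HSCs and 220 in MPPs). Klf1 was named after its values were seen.

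**Figure D4:**
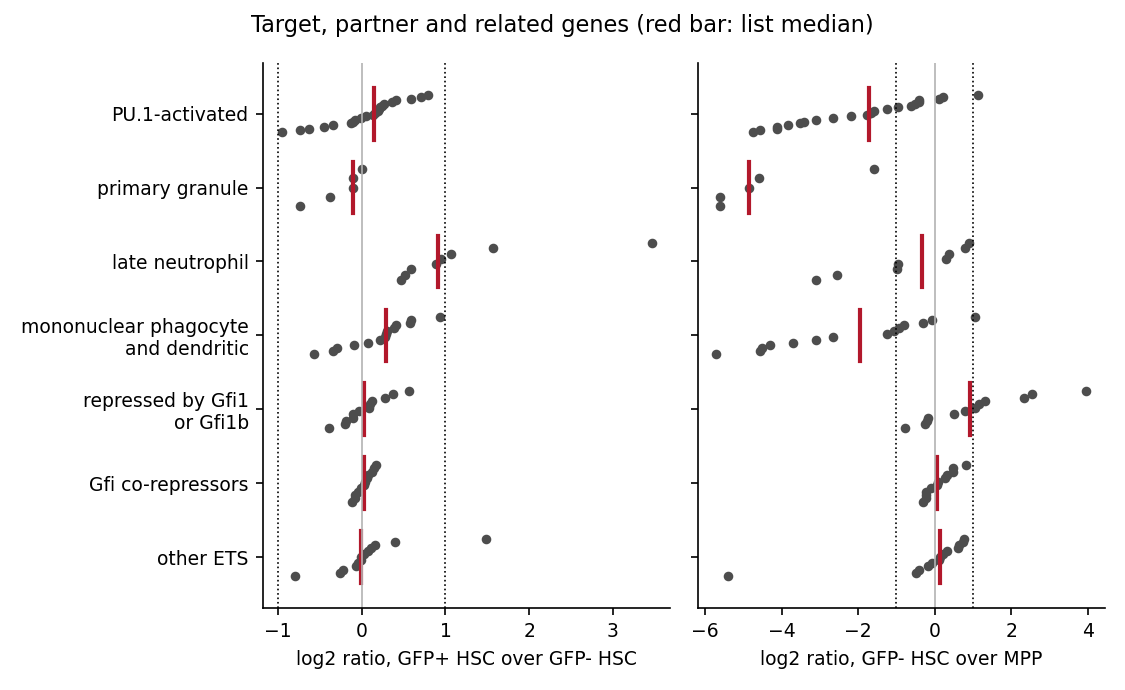
Log2 ratios of single genes (points) and list medians (red bars) for 7 gene lists, in GFP+ against GFP- HSCs (left) and in GFP- HSCs against MPPs (right); dotted lines mark 2-fold, and the axes differ in range. Primary granule genes have the lowest median against MPPs, at -4.84, and late neutrophil genes the highest median between the HSC fractions, at 0.92; the point of Spib rests on a level listed at 0 in GFP- HSCs.

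Likeness was measured as the distance between centred log2 levels over the 3 libraries, among 10490 genes that averaged 100 or more. With 3 libraries many genes share a pattern by construction, and the count within a distance of 0.25 shows how common each was. Cebpb had 1472 such genes and Cebpd 430, with Rfx5 nearest to Cebpb and Fgd2 to Cebpd. Spi1 had 323, with Phgdh, Hes6 and Pik3r5 nearest. Gfi1b had 67, with Rec8 nearest, at 1070 in GFP+ HSCs, 1202 in GFP- HSCs and 333 in MPPs. Gfi1 had 14, and the nearest were Socs2, at 965 in GFP+ HSCs, 652 in GFP- HSCs and 2402 in MPPs, and Notch1, at 2365, 1725 and 6240. Cebpa had 6, and the nearest were Clec10a, Tyrobp and Flt3. Tyrobp stood at 69 in GFP+ HSCs, 96 in GFP- HSCs and 1735 in MPPs, close to Cebpa also in level. Cebpe and Irf8 had 4 each, with Blnk, Pld4 and Cybb nearest to Cebpe and Cd300lb, Kmo and Csf1r nearest to Irf8. With a pseudocount of 1, Csf1r alone stayed among the 3 nearest to Irf8.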

How the data were processed

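TRIzol and a PicoPure kit gave the RNA and a SMART-seq v4 kit the cDNA, per the labels' protocols; this chemistry copies whole transcripts by PCR, with neither molecular identifiers nor a mark of strand. STAR, DESeq2 and mm10 are named in the submitters' processing notes; for versions, annotation and counting the entry is not given in the sources used here. Values that the authors deposited are normalized counts per gene as whole numbers, treated as a score because the size factors are unknown; depth, counting intervals and limits of detection could therefore not be had. Columns neg and pos were read as GFP- and GFP+ HSCs. Of 23420 rows, 27 named by a date (0.212% of the levels) were left out. Older symbols were matched through RefSeq synonyms.

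Genes that averaged 50 or more were compared by log2 of (level + 5) and counted at 2-fold. Folds of single genes are ratios of the levels. Levels per kilobase use the longest GENCODE M21 transcript. The members and the 11 gene lists and 9 marker lists were chosen with earlier results of these data known. Named genes are the members, of each list the 2 most abundant and those with the extreme ratios, and 3 genes nearest in pattern to each member; others are said to be named after their values were seen or illustrate markers. Some list genes are not reported here. As alternatives, pseudocounts of 1 and 20, a minimum of 10, of 200 or no minimum, scaling to equal totals or upper quartiles, removal of the abundance trend, a 4-fold threshold and median transcript lengths were tried. The calculation was tested on simulated data. Python 3.11.15, numpy 2.4.6, pandas 2.3.3, statsmodels 0.14.6 and matplotlib 3.10.9 were used.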

Additional observations from a re-analysis of the deposited data

How the results depend on the processing

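No direction of a member that was at least 2-fold apart changed under any of the 8 other settings of pseudocount, minimum level, scaling or abundance trend (7 for Cebpe, which was not compared at a minimum mean of 200). A pseudocount or a minimum level cannot change the sign of a ratio. Scaling moved the median of all genes by 0.11 at most, too little to reverse a 2-fold ratio. Only removal of the abundance trend could have changed these directions. Among smaller ratios, that of Cebpd between the HSC fractions changed sign under 2 settings, equal upper quartiles and removal of the abundance trend, and ranged from -0.01 to 0.01. Of 60 recounts of members past the fold, 56 were within 1.5 times. The number lower by 2-fold against MPPs ranged from 4 to 6 in each HSC fraction under those 8 settings, with Cebpd, Irf4, Cebpe or Spi1 entering or leaving. At a 4-fold threshold the counts against MPPs were 3 lower and 0 higher for GFP+ HSCs and 3 lower and 0 higher for GFP- HSCs. Equal upper quartiles moved the median of all genes by 0.11 for GFP- HSCs against MPPs, and Spi1, at -0.97, was then no longer 2-fold lower. With ratios of the levels themselves and Irf4 included, a setting added after the data were seen, 6 of 9 were at least 2-fold lower in GFP+ HSCs and 7 of 9 in GFP- HSCs. The ratio of Cebpe ranged from -3.24 to -1.91 for GFP+ HSCs and from -3.96 to -2.31 for GFP- HSCs against MPPs.

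Of 264 recomputed list medians, 255 moved by less than 1.5-fold. The late neutrophil median for GFP+ HSCs against MPPs was -0.068 with a minimum mean of 200 and 0.17 with the abundance trend removed. For GFP- HSCs against MPPs it was 0.34 with no minimum, 0.34 with a minimum of 10, -0.95 with a minimum of 200 and -0.95 with the trend removed, so its direction is not settled. The mononuclear phagocyte and dendritic median was -1.10 for GFP+ HSCs with a minimum of 200, and for GFP- HSCs -1.36 with no minimum and -1.16 with a minimum of 200. Which genes enter the list changes with the minimum; the cause under the trend removal was not tested. Ratios between 2 factors per kilobase moved by over 1.5 times with median transcript lengths in 15 of 18 cases, all by a constant factor per pair. No paired analysis was possible because there was 1 library per population. The unknown depth limits what can be said of Cebpe, Irf4 and other genes near the bottom of the scale.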
